A study of Homo sapiens with 6 samples.

Results

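The oncofetal liver cancer genes are genes that are active in the fetal liver and in hepatocellular carcinoma (HCC), and most of them are largely silent in the adult organ. The 10 genes described here, AFP, GPC3, IGF2, H19, IGF2BP1, IGF2BP2, IGF2BP3, LIN28B, HMGA2 and SALL4, were chosen by name, and 9 of them were read from the 16305 genes measured by RNA-seq. H19 was not analysed here. The samples were Huh7-R cells (Huh7SR in the sample labels), a pool selected from the HCC line Huh7 by long exposure to sorafenib, the kinase inhibitor used against advanced HCC, which was withdrawn from the medium some days before the experiments. Cells received fostamatinib, a prodrug whose active form inhibits the spleen tyrosine kinase SYK, in 3 samples, or its solvent DMSO in the other 3. The authors did not detect SYK protein in Huh7 cells and propose that the drug acts there through other targets. The labels give 24 h and 2 µM for every sample, the DMSO samples included, so the volume of solvent is not known from them. All 6 samples therefore carry the same resistant background, and neither parental Huh7 cells nor sorafenib itself entered this comparison. The labels speak of treatments in triplicate without naming separate cultures, so the p-values measure the spread between these samples, which may be technical.

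AFP encodes alpha-fetoprotein, the main plasma protein of the fetus and a blood marker of HCC, and GPC3 encodes glypican-3, a heparan sulfate proteoglycan held on the cell surface by a lipid anchor. IGF2 is a growth factor of the fetus, where it is transcribed from the paternal chromosome, beside the maternally expressed noncoding RNA H19. The 3 IGF2BP proteins bind IGF2 RNA and many other transcripts and protect them from decay. LIN28B blocks the maturation of the let-7 microRNAs, and HMGA2, an architectural chromatin protein, is a textbook target of let-7. SALL4 is a zinc-finger factor of stem cells and fetal liver that binds the NuRD repressor complex.

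Between 13303451 and 15272737 reads per sample fell on the listed genes. Each deposited value is a log2 CPM, the log2 of the read count scaled to the library size, with 0.5 added to the count, and the whole read count behind every value could be recovered. Samples of one group correlated across genes at 0.988 or above and samples of different groups at 0.972 or below. By chi-square per degree of freedom, which grows as counts differ, DMSO replicate 3 lay furthest from its group. Its pairs with DMSO replicates 1 and 2 had 2.93 and 3.74. Other pairs within a group had 1.65 to 2.23, and pairs of different groups 39.8 to 44.5. The defining hepatocyte products were present: all 14 listed hepatocyte markers had reads, and their summed level was 4348 to 4660 CPM after DMSO and 6931 to 7402 CPM after fostamatinib. All 14 rose (23.3% of all genes rose), with a median log2 fold change of 0.60. Of 6 fibroblast markers 5 were tested, of which 2 rose and 1 fell, and they summed to 297 to 306 CPM after DMSO and 308 to 312 CPM after fostamatinib. Of 4 endothelial markers PECAM1 alone was tested, and it rose, from 6.13 to 6.96 up to 8.76 to 9.93 CPM. Of 5 leukocyte markers CD14 alone was tested, at 0.25 to 0.49 and 0.19 to 0.53 CPM. The fibroblast marker DCN, the endothelial markers VWF, CDH5 and KDR and the leukocyte markers PTPRC, CD3E, CD68 and CD79A were not analysed here.

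The sequences that recur in this gene set belong to let-7 and its targets. LIN28B acts on the let-7 precursors, and the match of the let-7 seed in 3′ untranslated regions (3′ UTRs) is the feature that several of these genes have in common. The microRNAs themselves were not measured. The 8 mature let-7 RNAs of the 5′ arm share the same seed, bases 2 to 8, which is in capitals in the RefSeq sequences of these 3:
hsa-let-7a-5p: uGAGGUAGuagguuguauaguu
hsa-let-7d-5p: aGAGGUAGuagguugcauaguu
hsa-let-7g-5p: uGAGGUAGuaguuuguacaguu

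The reverse complement of the seed, CTACCTC, was searched on the transcript strand of the 3′ UTR of each gene's main annotated transcript. HMGA2 and LIN28B held 4 matches each, in 2999 and 4549 bases of 3′ UTR. IGF2BP1 also held 4, in 6701 bases. IGF2BP2, IGF2BP3 and SALL4 held 1 match each, and AFP, GPC3 and IGF2 held 0 in 3′ UTRs of 554, 379 and 3870 bases. By comparison, 1402 of 12598 genes with a 3′ UTR (11.1%) held at least 1 match, and the share grew with length. Among 3′ UTRs of 2000 to 3000 bases 13.9% held at least 1 match and 0.115% at least 4. Among those of 3000 to 5000 bases the shares were 20.5% and 0.116%, and among those of 5000 to 8000 bases 31.9% and 0.549%. The matches are shown with the bases before them, 5′ to 3′ on the gene's strand, with the match in capitals, and with the following A where the site has one. For HMGA2, the gene with the largest called change, all 4 are given, and for the others the first in the 3′ UTR.
HMGA2, GRCh37 chr12:66357073-66357100, plus strand: ggggcgccaacgttcgatttCTACCTCA
HMGA2, GRCh37 chr12:66358305-66358334, plus strand: caatatatccccactactcaataCTACCTC
HMGA2, GRCh37 chr12:66358717-66358746, plus strand: tggactaattgacttgcaaagacCTACCTC
HMGA2, GRCh37 chr12:66359570-66359599, plus strand: tgttgtacaatcaaaacacactaCTACCTC
LIN28B, GRCh37 chr6:105526680-105526709, plus strand: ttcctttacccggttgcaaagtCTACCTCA
IGF2BP1, GRCh37 chr17:47128416-47128445, plus strand: gcaatgctgtgtgcgaagtaaaCTACCTCA
IGF2BP2, GRCh37 chr3:185362008-185362037, minus strand: cgagaaaaacacacagaagaagCTACCTCA
IGF2BP3, GRCh37 chr7:23351414-23351443, minus strand: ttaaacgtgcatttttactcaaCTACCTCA
SALL4, GRCh37 chr20:50399462-50399491, minus strand: gggtgtgaaagctttaatttatCTACCTCA

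The comparison of fostamatinib with DMSO asked how these genes responded to the drug in resistant cells. Of the 9 genes, 6 passed an adjusted p of 0.05 (limma with a mean-variance trend, Benjamini-Hochberg adjustment over all genes), beside 47.8% of all genes. The response was broad across the transcriptome, and this count of members and those for lists of related genes are to be read against it. Genes with many reads pass the test more easily, and all members except SALL4 had many reads. The member count is therefore not set against the share of all genes as a difference. AFP and GPC3 rose (23.3% of all genes rose), and HMGA2, LIN28B, IGF2BP1 and IGF2BP2 fell (24.5% of all genes fell). IGF2, IGF2BP3 and SALL4 did not pass the test. In the same 6 genes that passed, the samples of both groups did not overlap, beside 54.1% of all genes. HMGA2 alone also changed by more than 2-fold, as 7.13% of all genes did. The median log2 fold change of the 9 genes was -0.11 and that of all genes 0.0015. In bulk RNA, a change in the number of cells that carry a transcript and a change in its amount per cell cannot be told apart.

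**Figure D1:**
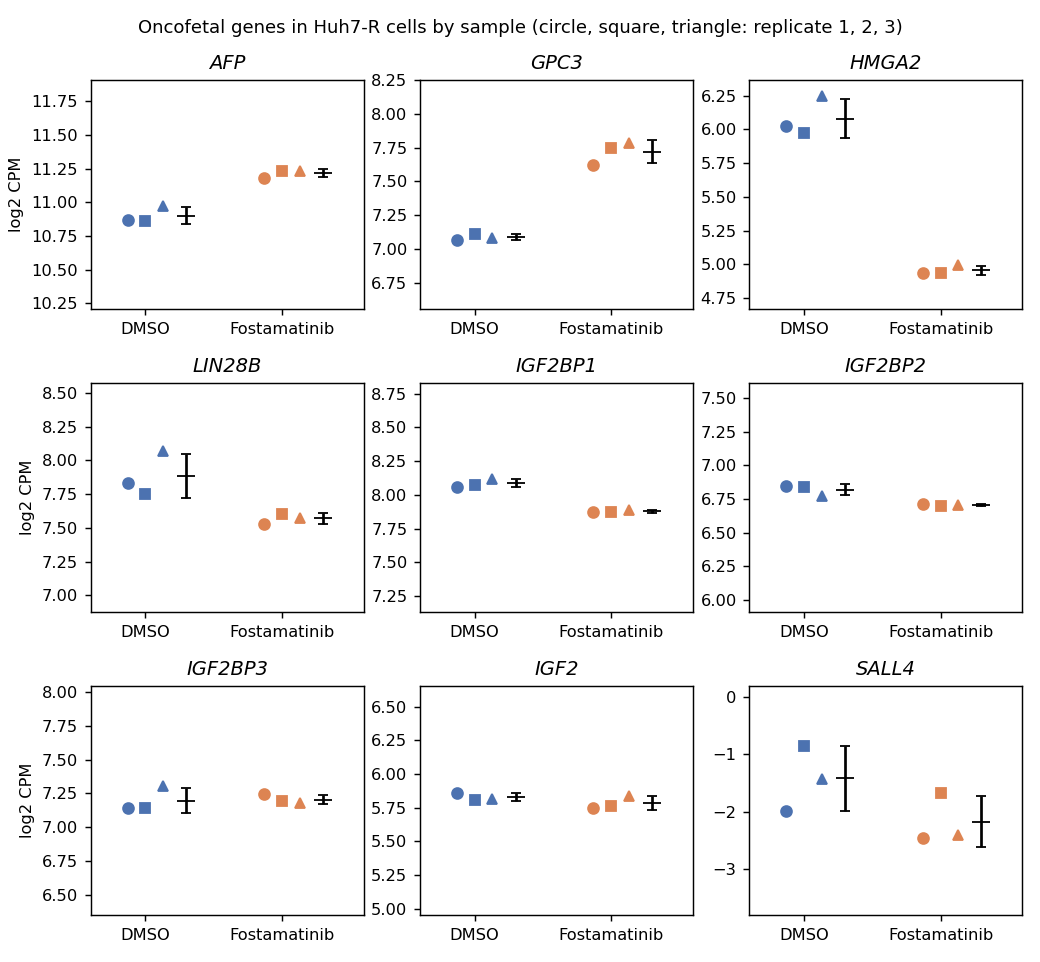
Level of the 9 oncofetal genes in each of the 6 samples as log2 CPM on the y axis, with DMSO in blue, fostamatinib in orange, circles, squares and triangles for replicates 1, 2 and 3, and the black mark the mean and SD of 3 samples. Panels span the same number of log2 units except that of SALL4, whose 2 to 8 reads per sample spread more widely; AFP and GPC3 sit higher after fostamatinib, HMGA2, LIN28B, IGF2BP1 and IGF2BP2 lower, and the groups overlap for IGF2BP3, IGF2 and SALL4.

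AFP (ENSG00000081051, GRCh37 chr4:74296855-74321891, plus strand) gave 25715, 28438 and 29858 reads in DMSO replicates 1, 2 and 3 and 31945, 34288 and 31895 reads in fostamatinib replicates 1, 2 and 3. As log2 CPM these were 10.87, 10.86 and 10.97 against 11.18, 11.23 and 11.23. Every fostamatinib sample lay above every DMSO sample, and replicate 3 was the highest DMSO sample. AFP rose 1.24-fold, a log2 fold change of 0.31 (SE 0.033, 95% interval 0.25 to 0.38, adjusted p = 4.72e-10). AFP accounted for 0.186 to 0.201% of reads after DMSO and for 0.231 to 0.240% after fostamatinib. By reads it ranked between 24 and 28 among all genes after DMSO and between 19 and 20 after fostamatinib. Hepatocyte markers rose in the same samples, as given above, and their part in the AFP result was not tested.

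ALB, which encodes albumin and lies 9.7 kb before AFP on the same strand, rose by nearly the same amount, with a log2 fold change of 0.29 (SE 0.034, adjusted p = 8.56e-09). In each sample AFP gave about the same number of reads per ALB read. For replicates 1, 2 and 3 the ratio was 3.001, 2.92 and 3.07 after DMSO and 3.08, 3.03 and 3.05 after fostamatinib. The groups overlapped in this ratio, which was chosen after the values were seen and is given without a test. AFM, the afamin gene 25.6 kb after AFP, had 2, 3 and 2 reads after DMSO and 13, 9 and 18 after fostamatinib. AFM passed the authors' filter on low counts only through the fostamatinib samples, so its rise is given without a test. Among 15 genes of the albumin cluster and AFP regulators, 11 rose (AFM among them), 1 fell and 3 did not pass the test. Their median log2 fold change was 0.81 (23.3% of all genes rose, 24.5% fell). CEBPA and ONECUT1, transcription factors of the differentiated liver, rose by 1.58 (SE 0.082, adjusted p = 7.20e-18) and 1.42 (SE 0.14, adjusted p = 1.05e-10), while CEBPB, a factor of the acute-phase response, fell by 0.83 on the same scale (SE 0.053, adjusted p = 1.59e-15). ZHX2, known as a repressor of AFP after birth, rose by 0.21 (SE 0.051, adjusted p = 7.65e-04), and the other such repressor, ZBTB20, had 0.12 (SE 0.10, adjusted p = 0.334). Both were chosen for mention after their values were seen.

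GPC3 (ENSG00000147257, GRCh37 chrX:132669773-133121127, minus strand) had 1851, 2107 and 2015 reads in DMSO replicates 1, 2 and 3 and 2715, 3069 and 2925 reads in fostamatinib replicates 1, 2 and 3. The log2 CPM was 7.07, 7.11 and 7.08 after DMSO and 7.63, 7.75 and 7.79 after fostamatinib. All 3 fostamatinib samples lay well above the DMSO samples, which hardly differed from each other. The log2 fold change of 0.63 (SE 0.044, 95% interval 0.54 to 0.72, adjusted p = 1.88e-14), or 1.55-fold, was the largest rise among the oncofetal genes, and 10.2% of all genes had a higher one. GPC4, the glypican gene 120 kb away on the same strand, moved the other way, by -0.63 (SE 0.099, adjusted p = 1.92e-06), from a mean of 224 to 136 reads. Among 13 tested genes of the glypicans and of heparan sulfate synthesis and release, 3 rose, 5 fell and 5 did not pass, with a median of -0.06. The cell-surface proteoglycans SDC1 and SDC4 moved apart, at 0.24 (SE 0.064, adjusted p = 2.38e-03) and -0.69 (SE 0.038, adjusted p = 3.64e-17), and NDST1, a sulfotransferase of heparan sulfate, rose by 0.22 (SE 0.044, adjusted p = 6.39e-05).

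**Figure D2:**
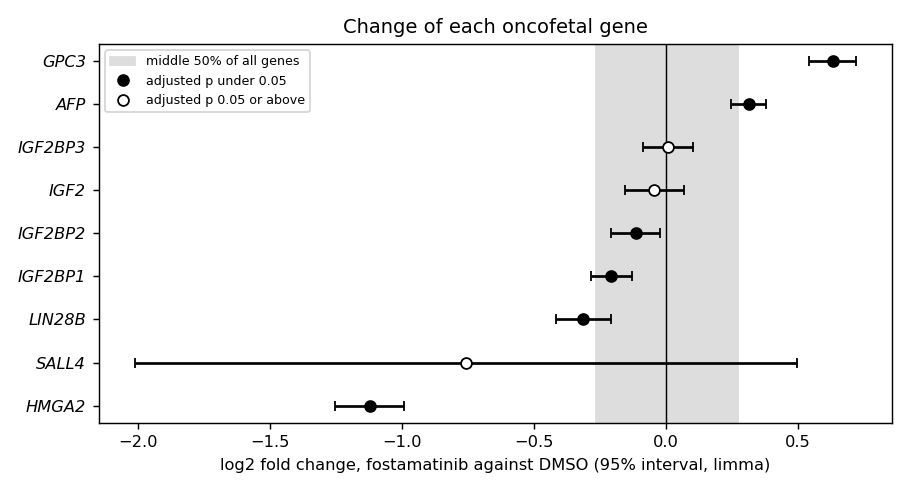
Log2 fold change of each of the 9 genes after fostamatinib against DMSO on the x axis, with the 95% interval from limma; filled points passed an adjusted p of 0.05 and the grey band holds the middle 50% of all genes. Of the genes that passed, GPC3, AFP, LIN28B and HMGA2 lie outside the band, which runs from -0.27 to 0.27, and the wide interval of SALL4 runs from -2.01 to 0.50.

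IGF2 (ENSG00000167244, GRCh37 chr11:2150342-2179621, minus strand), the growth factor of the set, had 800, 853 and 838 reads in DMSO replicates 1, 2 and 3 and 739, 773 and 759 reads in fostamatinib replicates 1, 2 and 3. The log2 CPM ranged from 5.81 to 5.86 after DMSO and from 5.75 to 5.84 after fostamatinib, so the groups overlapped. IGF2 had a log2 fold change of -0.04 (SE 0.055, 95% interval -0.16 to 0.07, adjusted p = 0.541). This interval corresponds to 0.897 to 1.05 times the level after DMSO. The antisense gene IGF2-AS, which overlaps IGF2 on the opposite strand, had 9 to 16 reads per sample, and its log2 fold change was 0.24 (SE 0.36, adjusted p = 0.608). INS-IGF2 overlaps IGF2 on the same strand and was not analysed here. How reads on overlapping genes or strands were counted is not given in the sources used here, so such reads may be shared or left out.

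Of 8 tested genes of IGF receptors and their adaptors, 3 rose, 3 fell and 2 did not pass, with a median of 0.0028. The receptor genes IGF1R and INSR both rose, and the adaptor genes moved in either direction. IGF1R had a log2 fold change of 0.21 (SE 0.044, adjusted p = 1.10e-04) and was chosen for mention after its value was seen. The insulin receptor gene INSR and the adaptor gene IRS2 rose by 0.26 (SE 0.049, adjusted p = 3.21e-05) and 0.28 (SE 0.054, adjusted p = 4.70e-05). The adaptor genes SHC1 and GRB10 had -0.28 (SE 0.037, adjusted p = 5.63e-08) and -0.27 (SE 0.044, adjusted p = 3.01e-06). Among 14 tested genes of a list of other imprinted genes, 7 rose, 3 fell and 4 did not pass, with a median of 0.21. PHLDA2 and SLC22A18 of this list were called in opposite directions, at -1.12 (SE 0.13, adjusted p = 8.54e-09) and 0.90 (SE 0.058, adjusted p = 2.77e-15). MEST, a paternally expressed gene of mesoderm, fell (-0.58, SE 0.060, adjusted p = 3.78e-10).

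The IGF2BP genes split. IGF2BP1 (ENSG00000159217, GRCh37 chr17:47074747-47133507, plus strand) had 3677, 4114 and 4130 reads in DMSO replicates 1, 2 and 3 and 3220, 3341 and 3142 reads in fostamatinib replicates 1, 2 and 3. Its log2 CPM of 8.06, 8.07 and 8.12 after DMSO compared with 7.87, 7.87 and 7.89 after fostamatinib, without overlap. The fall was small and even between samples, with a log2 fold change of -0.21 (SE 0.038, 95% interval -0.28 to -0.13, adjusted p = 2.37e-05), a level 0.867 times that after DMSO.

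IGF2BP2 (ENSG00000073792, GRCh37 chr3:185360918-185542830, minus strand) was counted at 1586, 1743 and 1628 reads after DMSO and at 1440, 1478 and 1385 after fostamatinib. The log2 CPM was 6.85, 6.84 and 6.78 against 6.71, 6.70 and 6.71. The groups did not overlap, but DMSO replicate 3 came close to the fostamatinib samples. The log2 fold change was -0.11 (SE 0.046, 95% interval -0.21 to -0.02, adjusted p = 0.0365). This call is the least firm of the 6. It was lost in 5 of the 6 fits that left out 1 sample, with an adjusted p of 0.0696 to 0.131, and in a fit without a mean-variance trend, with 0.0867.

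IGF2BP3 (ENSG00000136231, GRCh37 chr7:23349828-23510110, minus strand) was counted at 1942, 2159 and 2345 reads after DMSO and at 2084, 2084 and 1915 after fostamatinib. Its log2 CPM of 7.14, 7.14 and 7.30 after DMSO enclosed the 7.24, 7.19 and 7.18 found after fostamatinib. The log2 fold change was 0.0084 (SE 0.046, 95% interval -0.09 to 0.10, adjusted p = 0.898), and its sign depended on the scaling and on single samples. MALSU1, which overlaps IGF2BP3 on the opposite strand, had 0.08 (SE 0.064, adjusted p = 0.352).

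The make-up of the family was compared within each sample, as each gene's share of the reads per kb of transcript of the 3 together. IGF2BP3 held 36.6, 36.6 and 39.2% after DMSO and 41.0, 40.2 and 39.7% after fostamatinib. Its mean share went from 37.5% ± 1.53 (SD, n = 3) to 40.3% ± 0.644 (SD, n = 3), a difference of 2.83 percentage points (exact permutation test, two-sided, p = 0.10). IGF2BP1 went from 33.7% ± 0.169 to 31.2% ± 0.447, a difference of -2.46 points (exact permutation test, p = 0.10). IGF2BP2 differed by -0.369 points, with overlap (28.8% ± 1.43 to 28.5% ± 0.198, exact permutation test, p = 0.80). With 3 samples against 3, 0.10 is the smallest p this test can give, so none of these differences could pass 0.05. The order of the 3 genes depends on the length used: with main transcripts the IGF2BP3 share was the highest, but by reads alone IGF2BP1 had 51.1% after DMSO and IGF2BP3 27.6%, and per kb of all annotated exon bases, a scale chosen after seeing the data, IGF2BP1 had 42.3% and IGF2BP3 25.8%, the lowest of the 3. The IGF2BP1 and IGF2BP3 shares differed in the same directions on all 3 scales. These scales weight the same reads by a fixed length per gene or not at all, so this is not a separate check. Shares sum to 100% in each sample, so a gain of one is a loss of the others.

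**Figure D3:**
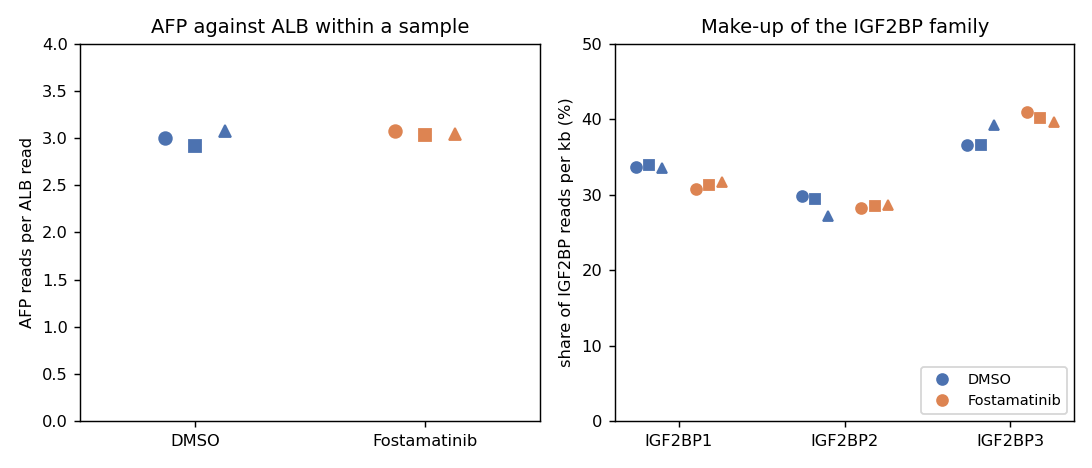
Left, AFP reads per ALB read in each sample; right, the share in percent of each IGF2BP gene in the reads per kb of the 3 genes; blue is DMSO, orange is fostamatinib, and circles, squares and triangles are replicates 1, 2 and 3. The AFP to ALB ratio stays between 2.92 and 3.08 in all 6 samples, whereas the IGF2BP1 share lies lower and the IGF2BP3 share higher in all 3 fostamatinib samples.

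A further list held 11 tested genes that encode IGF2BP protein partners or writers of the adenosine methyl mark on RNA that they can read. Of these, 1 rose, 7 fell and 3 did not pass, with a median of -0.27 (23.3% of all genes rose, 24.5% fell). WTAP, a subunit of the methylation complex, fell most among those with at least 50 reads, by 0.58 on the log2 scale (SE 0.044, adjusted p = 2.09e-13). SYNCRIP, an RNA-binding partner, had -0.36 (SE 0.039, adjusted p = 1.39e-09), and the double-stranded RNA binding protein gene STAU1 rose by 0.18 (SE 0.036, adjusted p = 7.64e-05).

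LIN28B (ENSG00000187772, GRCh37 chr6:105384491-105531207, plus strand), the let-7 inhibitor, gave 3133, 3290 and 3982 reads in DMSO replicates 1, 2 and 3 and 2535, 2775 and 2527 reads in fostamatinib replicates 1, 2 and 3. The log2 CPM was 7.83, 7.75 and 8.07 after DMSO and 7.53, 7.61 and 7.58 after fostamatinib. All fostamatinib samples were lower than all DMSO samples, and DMSO replicate 3 stood above the other DMSO samples by more than the fostamatinib samples differed among themselves. The log2 fold change was -0.31 (SE 0.051, 95% interval -0.42 to -0.21, adjusted p = 3.54e-06), a level 0.805 times that after DMSO. Without DMSO replicate 3 it was -0.22, the smallest of the values found on leaving out 1 sample, and the call held. Of all genes, 21.7% had a lower fold change.

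The genes of let-7 processing did not move in a shared direction. Of 17 tested, 3 rose, 4 fell and 10 did not pass, with a median of -0.02 (23.3% of all genes rose, 24.5% fell). ZCCHC11 and ZCCHC6, the uridylyl transferases of let-7 precursors (LIN28A recruits the first), rose by 0.54 (SE 0.049, adjusted p = 1.67e-11) and 0.38 (SE 0.051, adjusted p = 1.11e-07). XPO5, the exporter of microRNA precursors from the nucleus, and AGO2, the slicing Argonaute protein, fell, with -0.72 (SE 0.048, adjusted p = 7.31e-15) and -0.38 (SE 0.048, adjusted p = 3.00e-08).

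HMGA2 (ENSG00000149948, GRCh37 chr12:66218240-66360071, plus strand) changed most. It gave 895, 956 and 1127 reads in DMSO replicates 1, 2 and 3 and 421, 436 and 422 reads in fostamatinib replicates 1, 2 and 3. The log2 CPM was 6.02, 5.97 and 6.25 after DMSO and 4.94, 4.94 and 4.99 after fostamatinib. The groups were far apart relative to their spread, although DMSO replicate 3 was again the highest sample. HMGA2 was 2.18-fold lower, a log2 fold change of -1.12 (SE 0.065, 95% interval -1.25 to -0.99, adjusted p = 1.31e-16), and 3.16% of all genes had a lower one. The 4 matches of the let-7 seed shown above lie 21, 1256, 1668 and 2521 bases into its 3′ UTR. LLPH, the next tested gene, 150 kb after HMGA2, also fell (-0.47, SE 0.080, adjusted p = 6.00e-06).

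Genes were also grouped by the number of seed matches in their 3′ UTR. Of 11196 genes with 0 matches, 29.0% fell and 26.8% rose. Of 1225 genes with 1 match, 30.5% fell and 23.3% rose, and of 148 with 2 matches, 29.1% fell and 30.4% rose. Of 18 genes with 3 matches, 22.2% fell and 16.7% rose, with a median log2 fold change of 0.04. The last groups are too small to show a trend, and a part of let-7 in these shares was not tested. Only 11 genes had 4 or more matches, and of these 54.55% fell and 9.09% rose. HMGA2, LIN28B and IGF2BP1 are 3 of the 11, and all 3 fell. Of the other 8, 3 fell, among them LIMD2 and SMC1A with log2 fold changes of -0.34 (adjusted p = 3.02e-03) and -0.14 (adjusted p = 1.43e-03). HIC2 rose by 0.22 (adjusted p = 5.23e-04), and ZBTB37, HEMK1, TRIM71 and NR6A1 did not pass the test. These genes were chosen for mention by their matches, after their values were known.

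The list of genes known as let-7 targets, from which the oncofetal genes were left out, gave 18 tested genes. Of these, 3 rose, 11 fell and 4 did not pass, with a median of -0.24 (23.3% of all genes rose, 24.5% fell). The cell cycle genes E2F2 and CCND1 fell, with log2 fold changes of -1.91 (SE 0.17, adjusted p = 1.32e-11) and -1.40 (SE 0.047, adjusted p = 2.35e-23). The HMGA2 relative HMGA1 also fell (-0.59, SE 0.047, adjusted p = 6.39e-13). ARID3A, a DNA-binding factor, rose by 0.35 (SE 0.036, adjusted p = 3.80e-10).

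SALL4 (ENSG00000101115, GRCh37 chr20:50398870-50419060, minus strand) was barely detected. It had 3, 8 and 5 reads after DMSO and 2, 4 and 2 after fostamatinib, 16 and 8 in sum. The groups overlapped. Its log2 fold change was -0.76 (SE 0.62, 95% interval -2.01 to 0.50, adjusted p = 0.330), so at this depth neither a large fall nor a rise could be told from no change. Of 15 tested genes among its relatives, the HMGA family and the NuRD complex, 4 rose, 5 fell and 6 did not pass, with a median of 0.02. In NuRD, the remodeller gene CHD3 and the deacetylase gene HDAC1 rose by 0.38 (SE 0.045, adjusted p = 7.68e-09) and 0.25 (SE 0.040, adjusted p = 1.78e-06), and GATAD2A, which joins the parts of the complex, had -0.35 (SE 0.041, adjusted p = 3.95e-09).

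Levels were compared between genes as CPM per kb of main transcript. AFP stood far above the others, at 788 ± 34.4 (SD, n = 3) after DMSO and 980 ± 20.0 (SD, n = 3) after fostamatinib, rank 56 and 37 of 12628 genes with a transcript length. GPC3 followed with 60.0 ± 0.840 and 93.1 ± 5.39. LIN28B (43.5 ± 5.04 and 34.9 ± 0.964), IGF2BP3 (34.3 ± 2.24 and 34.5 ± 0.853), IGF2BP1 (30.9 ± 0.656 and 26.7 ± 0.189) and IGF2BP2 (26.4 ± 0.696 and 24.4 ± 0.123) lay close together below it. In the DMSO samples each of these neighbours in the order was separated from the next, whereas after fostamatinib LIN28B and IGF2BP3 overlapped. HMGA2 lay above IGF2 in every DMSO sample and below it in every fostamatinib sample, at 16.5 ± 1.71 and 7.53 ± 0.175 against 10.2 ± 0.203 and 9.87 ± 0.344 for IGF2. SALL4 was lowest, at 0.069 ± 0.030 and 0.037 ± 0.015. These levels depend on the transcript taken as the main one, and that of IGF2 also on how reads of overlapping genes were counted. Per kb of all annotated exon bases, a scale chosen after seeing the data, IGF2BP3 (17.2 after DMSO) lay below IGF2BP1 (28.2) and IGF2BP2 (21.2), and HMGA2 (4.50) lay below IGF2 (7.95) after DMSO as well.

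**Figure D4:**
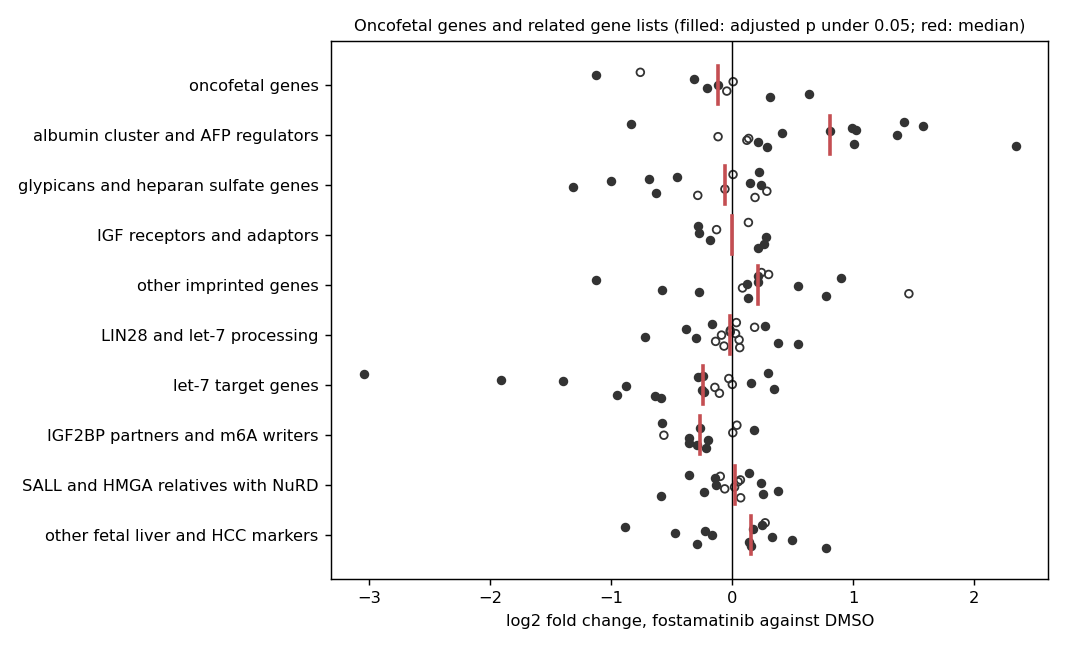
Log2 fold change after fostamatinib against DMSO on the x axis for the 9 oncofetal genes and for the tested genes of 9 related lists, 1 point per gene, filled where the adjusted p was under 0.05, with the median of each list in red. The median lies highest for the albumin cluster and AFP regulators (0.81) and lowest for the IGF2BP partners and RNA methylation writers (-0.27), and each of the 9 related lists holds genes that rose and genes that fell.

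Other markers shared by fetal liver and HCC, such as the retrotransposon-derived imprinted gene PEG10, went both ways as the oncofetal genes did. Of 13 tested, 7 rose, 5 fell and 1 did not pass, with a median of 0.15. PEG10, which had a mean of 6359 reads after DMSO and 10222 after fostamatinib, rose by 0.78 (SE 0.037, adjusted p = 8.26e-19), and DKK1, a secreted Wnt inhibitor, by 0.49 (SE 0.060, adjusted p = 1.32e-08). Progenitor markers of this list went both ways. PROM1 and SOX9 fell, with -0.89 (SE 0.044, adjusted p = 1.85e-18) and -0.47 (SE 0.085, adjusted p = 1.59e-05). KRT19 and EPCAM rose, with 0.25 (SE 0.039, adjusted p = 1.80e-06) and 0.17 (SE 0.064, adjusted p = 0.0234), and were chosen for mention after their values were seen. Over all 9 lists, 121 different genes were tested and 83 (68.6%) were called, 41 higher and 42 lower, with a median of 0.02. The lists hold genes with many reads, for which a given change passes the test more easily, so that share is not set against the 47.8% of all genes as a difference.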

How the data were processed

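RNA of 3 DMSO and 3 fostamatinib samples had been sequenced from a directional poly(A) library. Alignment by the authors used HISAT and hg19, counting used featureCounts with GENCODE 22, and filtering removed genes under 5 reads in at least 2 of 3 samples of each group before TMM scaling. The strand setting of the counting is not given in the sources used here. The deposited values are log2 CPM. Each equalled the log2 of a whole count (within 0.05 reads) plus 0.5, scaled to the library size, so reads could be recovered, and totals were 13303451 to 15272737 per sample. These totals count reads on listed genes only.

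Each file held 16311 rows for 16305 different genes. These deposited log2 values entered limma 3.58.1 (R 4.3.3), which was used as no raw counts were analysed, with a mean-variance trend, all 6 samples, treatment as the only factor and adjustment over all genes. The fit was tested on simulated data. Ratios within samples were compared with exact permutation tests (scipy 1.17.1). Positions and transcripts came from GENCODE 44 on GRCh37, which held 98.7% of the gene identifiers. Mature microRNA sequences came from RefSeq. Named genes were all members, tested neighbours within 500 kb, and per list up to 2 with the largest called rise and 2 with the largest called fall where the higher group averaged 50 reads or more. The members and lists were chosen with earlier results of these data known. Alternatives covered scaling, low-count filters, the added count, voom, a fit without trend, a stricter threshold, a replicate block and leaving out each sample. H19 was not analysed here, nor was its ratio to IGF2, and some genes of the lists are not reported here by name.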

Additional observations from a re-analysis of the deposited data

How the results depend on the processing

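AFP, GPC3, IGF2BP1, LIN28B and HMGA2 kept their direction and their call under every alternative run, with log2 fold changes on leaving out 1 sample of -1.18 to -1.04 for HMGA2 and -0.38 to -0.22 for LIN28B. The largest adjusted p was 0.0464, for LIN28B in the fit without a mean-variance trend. IGF2BP2 lost its call in that fit, under the stricter threshold and in 5 of 6 fits without 1 sample, so 5 to 6 oncofetal genes were called. IGF2BP3, never called, turned to -0.0027 with library size alone, -0.0197 without DMSO replicate 1, -0.017 without DMSO replicate 2 and -0.0115 without Fostamatinib replicate 1. Its range without 1 sample was -0.0197 to 0.0618. The share difference of IGF2BP2 turned to 0.138 points with shares of reads, to 0.092 per kb of all annotated exon bases (chosen after seeing the data) and to 0.117 without DMSO replicate 1, with a range of -1.19 to 0.117. The cause was not tested. Of all genes, 4136 were called at 1 expected false positive against 7794, 6958 to 7480 without 1 sample, and 60 to 84 of the related genes were called. Replicate numbers did not pair the samples (correlations of deviations 0.0278, -0.0192 and 0.0132), and a fit with the replicate block called 7977 genes and kept all 6 member calls. Depth limits SALL4, which had no value under either stricter filter. The alternatives for the IGF2 to H19 ratio were not run.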

Other observations

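Tested neighbours of the oncofetal genes on the chromosome moved in either direction. SENP2 and TRA2B, on either side of IGF2BP2, had log2 fold changes of 0.20 (adjusted p = 2.22e-03) and -0.31 (adjusted p = 2.26e-07, limma). B4GALNT2, 76.3 kb after IGF2BP1, rose by 0.36 (adjusted p = 2.59e-03), while SNF8 on its other side had 0.05 (adjusted p = 0.485). HACE1 and BVES, around LIN28B, had 0.24 (adjusted p = 0.0221) and -0.20 (adjusted p = 0.0298). ATP9A and ZFP64, around SALL4, had 0.22 (adjusted p = 5.93e-04) and -0.24 (adjusted p = 2.68e-03). LINC02454, a noncoding RNA gene 210 kb before HMGA2, had 8, 3 and 5 reads after DMSO and 1, 1 and 0 after fostamatinib. LINC02454 passed the authors' filter on low counts only through the DMSO samples, so this difference is given without a test. PHF6, 386 kb from GPC3, had -0.0078 (adjusted p = 0.931).

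DMSO replicate 3 was the highest DMSO sample for AFP, IGF2BP1, IGF2BP3, LIN28B and HMGA2 and the lowest for IGF2BP2.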
